A study of Mus musculus with 12 samples.

Results

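The effect of chow with ITF2357 on left ventricular RNA was measured in mice with surgically induced diastolic dysfunction, by comparing 4 UNX/DOCA ITF2357 libraries with 4 UNX/DOCA vehicle libraries, which are 8 of the 12 libraries of the series. Every animal of both groups underwent the UNX/DOCA procedure, in which a kidney is removed (uninephrectomy) and deoxycorticosterone acetate, a mineralocorticoid, is given. From 4 weeks after surgery the drug group ate chow with ITF2357 and the vehicle group normal chow, for another 4 weeks. A further 4 Sham vehicle mice had a sham operation and normal chow. They share the estimate of the spread and give a level for orientation, and no Sham mice received the drug. The labels call the animals of a group biological replicates and name no strain, genotype, sex, age or dose. The titles of all 4 drug libraries name ITF2357, whereas another label field counts upward from it over replicates 1 to 4, and the titles were used. All 16981 genes that passed a filter on low counts were tested.

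ITF2357, or givinostat, inhibits histone deacetylases (HDACs), the zinc-dependent enzymes that take acetyl groups off lysines of histones and of many other proteins. In heart muscle these enzymes act in complexes with transcription factors, and class IIa members restrain the growth programme driven by MEF2, while inhibitors of the catalytic classes are known to blunt hypertrophy and fibrosis in rodent models. Diastolic dysfunction is impaired relaxation and filling of the ventricle, to which stiffness of the matrix, of titin and of the contractile apparatus can contribute.

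The 8 libraries held 23.4 to 32.8 M counts, of which mitochondrially encoded genes took 23.7 to 27.8%. Summed over 12 ventricular myocyte markers, the UNX/DOCA vehicle libraries had 60177 to 67405 CPM (counts scaled to the size of the library) and the drug libraries 61106 to 67719. The median log2 fold change of these markers between the groups was -0.02. Atrial (Myl7, Sln, Bmp10), skeletal muscle (Myh1, Myh2, Myh4), adipocyte (Adipoq, Plin1) and mesothelial (Msln, Upk3b) defining genes were too low to be tested. Among the 8 libraries the first principal component, with 35.04% of the variance, set apart UNX/DOCA vehicle replicates 3 and 4 (64.9 and 29.0, the other 6 below 0). These libraries had the highest levels of neutrophil and macrophage genes, and the results below are also given without them.

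Of the 16981 genes, 153 (0.901%) differed between UNX/DOCA ITF2357 and UNX/DOCA vehicle at an adjusted p under 0.05 in edgeR's quasi-likelihood test, 78 higher (0.459%) and 75 lower (0.442%) with the drug. More than 2-fold changes were found for 25 of the higher and 28 of the lower genes. The 4 drug libraries did not overlap the 4 vehicle libraries for 152 of the 153, and over all tested genes the groups did not overlap for 9.31%. The 153 were chosen by a test on these same libraries, so their separation is not separate evidence. The median log2 fold change of all tested genes was -0.00. An unadjusted p under 0.05 was found for 3141 genes (18.5%). In bulk tissue, a lower value can mean fewer cells of a type or less RNA per cell, which cannot be told apart.

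**Figure D1:**
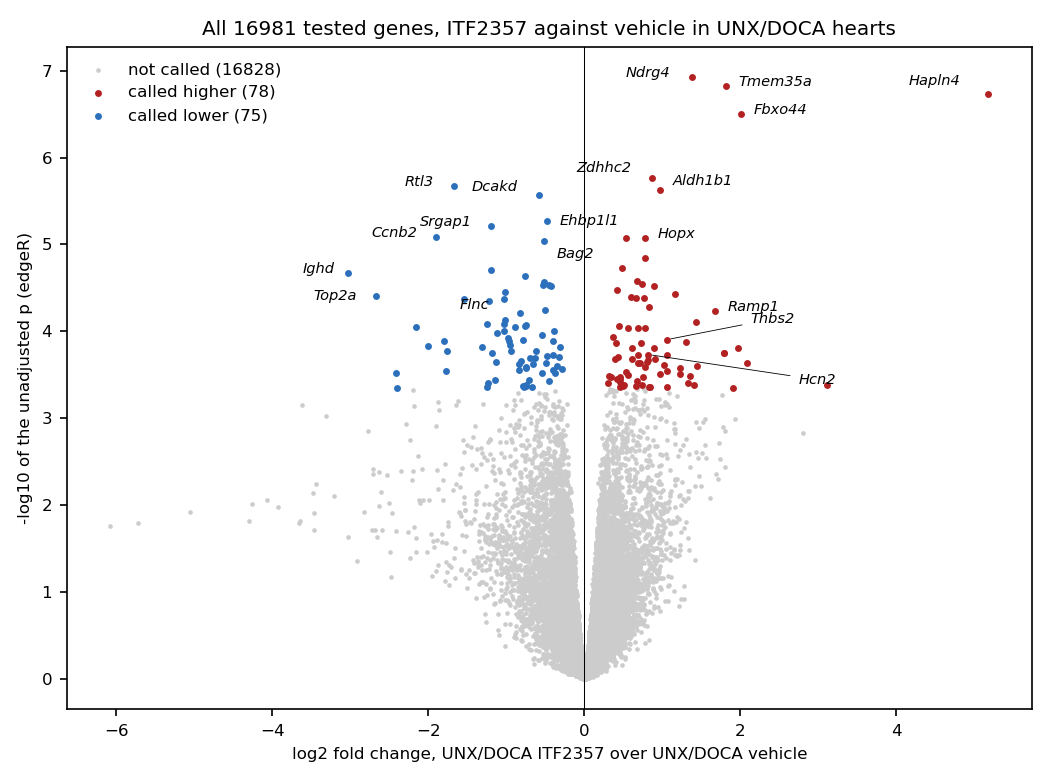
Each point is 1 of 16981 tested genes, with the log2 fold change of UNX/DOCA ITF2357 over UNX/DOCA vehicle (4 libraries each) on the x axis and -log10 of the unadjusted p of edgeR on the y axis. The 78 genes called higher are red and the 75 called lower blue, and Hapln4, Ndrg4, Tmem35a and Fbxo44 stand at the top right.

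How many genes passed rested on the libraries in the fit. It was 243 and 234 without UNX/DOCA vehicle replicates 1 and 2, 68 and 18 without replicates 3 and 4, and 12 without both of the latter. It was 14, 151, 27 and 26 without UNX/DOCA ITF2357 replicates 1 to 4, and 66, 49, 71 and 47 without Sham vehicle replicates 1 to 4. The 153 genes kept their direction in each of the 26 alternative settings in which they were tested, which was 141 genes with a filter of 1 CPM, 149 in the 2 fits of the 8 libraries alone and all 153 in the others. These fits reuse the same libraries, so a kept direction is not separate evidence. Called in each of the 12 fits that left out a library were 11 genes: Ndrg4, Tmem35a, Hapln4, Fbxo44, Zdhhc2 and Aldh1b1, higher with the drug, and Rtl3, Dcakd, Ehbp1l1, Srgap1 and Bag2, lower. In the fit of the 8 libraries alone, 5 genes were called, namely Ndrg4, Tmem35a, Hapln4, Fbxo44 and Zdhhc2.

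Ndrg4, a member of the N-myc downstream-regulated gene family that is expressed mainly in heart and brain, had 71.9, 60.8, 57.1 and 62.4 CPM in UNX/DOCA vehicle replicates 1 to 4 and 139, 154, 194 and 169 in UNX/DOCA ITF2357 replicates 1 to 4. The lowest drug library lay well above the highest vehicle library, and Sham vehicle (46.3 to 69.4 CPM) lay at the level of UNX/DOCA vehicle. The log2 fold change was 1.38 ± 0.13 SE, or 2.60-fold (adjusted p = 0.00104), and 1.30 without vehicle replicates 3 and 4 (adjusted p = 0.0341). Of the other 3 Ndrg genes 0 passed. Tmem35a encodes a chaperone that assembles nicotinic acetylcholine receptors in the endoplasmic reticulum. It had 1.86, 2.46, 2.04 and 2.19 CPM with vehicle and 9.61, 6.89, 6.69 and 6.96 with ITF2357, so that drug replicate 1 was the highest and the other 3 drug libraries lay close together, all above the vehicle libraries. Its log2 fold change was 1.82 ± 0.18 SE (3.52-fold, adjusted p = 0.00104).

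Hapln4, a link protein that joins hyaluronan to proteoglycans and is known from perineuronal nets, was close to absent without the drug. It had 1, 1, 0 and 0 counts in the 4 vehicle libraries and 24, 30, 24 and 14 in the 4 drug libraries. The ratio of the summed, depth-scaled counts, 92 to 2, was 45.1 with an exact 95% interval of 12.1 to 378 that covers counting error only, and the fitted log2 fold change was 5.17 ± 0.52 SE (adjusted p = 0.00104). Sham vehicle libraries stood at 0.0380 to 0.120 CPM, below each drug library. The RNA remained scarce in the drug group too, at 0.791 ± 0.151 CPM (SD, n = 4). Fbxo44, a substrate-recognition subunit of a ubiquitin ligase, had 0.439, 0.452, 0.623 and 0.647 CPM with vehicle and 2.66, 1.91, 2.13 and 1.99 with ITF2357. It was high in all 4 drug libraries (log2 fold change 2.01 ± 0.21 SE, 4.02-fold, adjusted p = 0.00134), and Sham vehicle at 0.494 to 0.712 CPM matched the range of UNX/DOCA vehicle closely.

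Zdhhc2, a palmitoyltransferase that attaches palmitate to membrane proteins, had 7.76, 8.37, 7.65 and 8.34 CPM with vehicle against 15.5, 13.5, 15.3 and 14.2 with the drug. Both groups were narrow and far apart (log2 fold change 0.86 ± 0.10 SE, adjusted p = 0.00566). Without vehicle replicates 3 and 4 its adjusted p was 0.0564. Aldh1b1, a mitochondrial aldehyde dehydrogenase, had 13.1, 14.2, 17 and 13.3 CPM with vehicle and 32.5, 29.6, 23.6 and 26.8 with ITF2357, a log2 fold change of 0.97 ± 0.12 SE (adjusted p = 0.00566). The 4 drug libraries again lay above all others, Sham vehicle included (12.9 to 16.1 CPM).

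**Figure D2:**
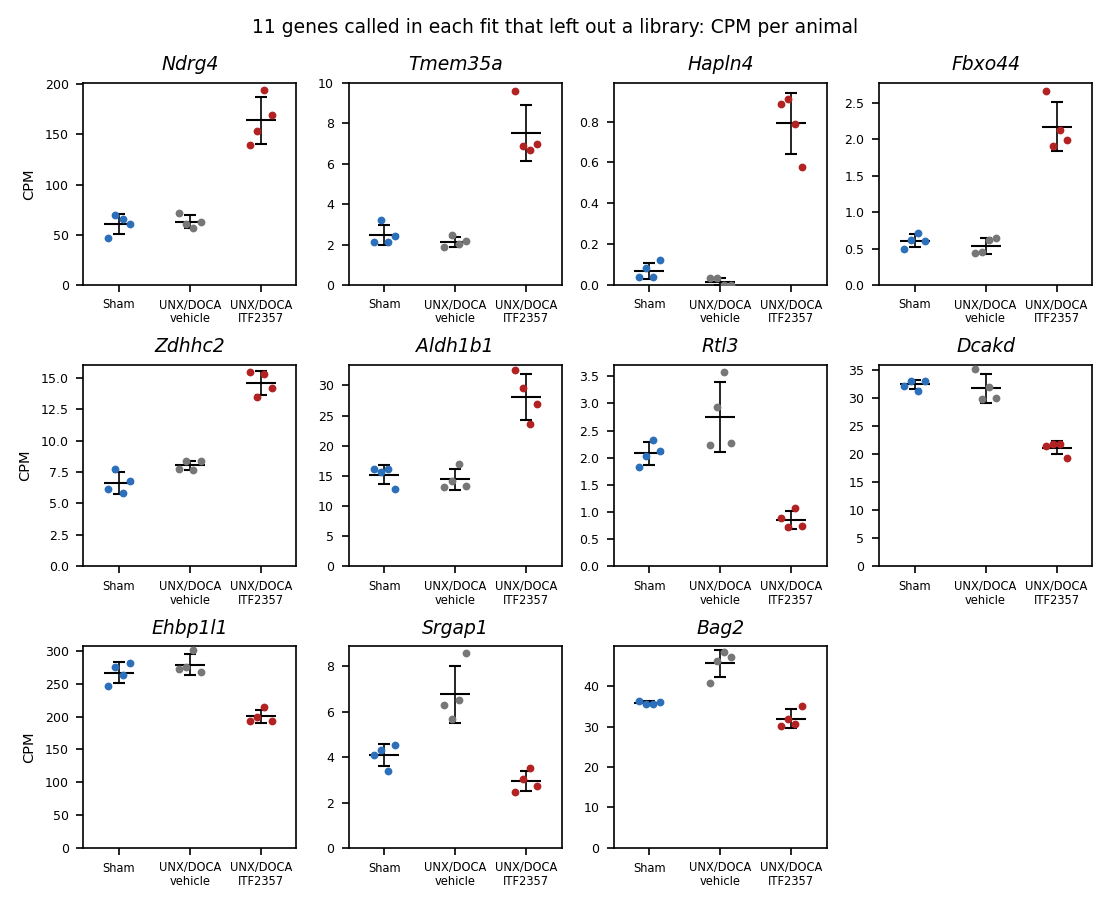
CPM per animal of the 11 genes called in each fit that left out a library, with Sham in blue, UNX/DOCA vehicle in grey and UNX/DOCA ITF2357 in red, 4 libraries each (bars: mean ± SD). For Ndrg4 the drug libraries lie between 139 and 194 CPM and the UNX/DOCA vehicle libraries between 57.1 and 71.9, and for Rtl3 the drug libraries lie below all others.

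Among the lower genes, Rtl3, which is derived from the Gag gene of a retrotransposon, had 2.23, 2.94, 3.57 and 2.27 CPM with vehicle and 0.887, 0.729, 1.08 and 0.746 with ITF2357. The drug libraries were lower than every vehicle and every Sham vehicle library (1.82 to 2.33 CPM), with a log2 fold change of -1.67 ± 0.21 SE (3.17-fold lower, adjusted p = 0.00566). Dcakd, named for its dephospho-CoA kinase domain, had 35.2, 29.8, 32 and 30.0 CPM against 21.5, 21.8, 21.9 and 19.4, and Sham vehicle had 31.4 to 33.2. This was a small change with little spread (log2 fold change -0.58 ± 0.07 SE, adjusted p = 0.00577). Ehbp1l1, a Rab8-binding protein of membrane transport, had 272, 275, 302 and 268 CPM with vehicle and 194, 199, 214 and 194 with the drug (log2 fold change -0.48 ± 0.06 SE, adjusted p = 0.0101). Its Sham vehicle range was 246 to 282 CPM, so the drug libraries again stood below both vehicle groups.

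For Srgap1 and Bag2 the UNX/DOCA vehicle libraries also lay above every Sham vehicle library. UNX/DOCA vehicle against Sham vehicle did not pass for either (adjusted p = 0.0998 and 0.0954). The drug libraries lay below every Sham vehicle library for Bag2 and overlapped them for Srgap1. Srgap1, a GTPase-activating protein of the Slit-Robo pathway, had 6.31, 5.69, 6.52 and 8.59 CPM with UNX/DOCA vehicle, 2.48, 3.04, 3.54 and 2.73 with ITF2357 and 3.40 to 4.53 in Sham vehicle. Its log2 fold change was -1.20 ± 0.16 SE (adjusted p = 0.0104). Bag2, a cochaperone of Hsp70, had 40.9, 46.2, 48.5 and 47.1 CPM with UNX/DOCA vehicle, 30.1, 32, 30.7 and 35.2 with ITF2357 and 35.5 to 36.3 in Sham vehicle (log2 fold change -0.51 ± 0.07 SE, adjusted p = 0.0110). Without UNX/DOCA vehicle replicates 3 and 4 the values were -1.03 for Srgap1 and -0.45 for Bag2, with adjusted p = 0.0707 for both. Of the 11 genes, 7 had an adjusted p under 0.05 in that setting, namely Ndrg4, Tmem35a, Hapln4, Fbxo44, Aldh1b1, Rtl3 and Dcakd.

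Several other genes called higher encode receptors, channels and signalling proteins. Ramp1, the co-receptor that turns the calcitonin receptor-like receptor into the receptor of the vasodilator CGRP, had 1.38, 1.45, 1.45 and 1.87 CPM with vehicle and 6.54, 3.55, 5.28 and 4.27 with ITF2357. All 4 drug libraries lay above the vehicle libraries, but Sham vehicle, at 1.31 to 3.56 CPM, reached the lowest of them. The log2 fold change was 1.67 ± 0.29 SE (adjusted p = 0.0254). Of 6 tested genes of adrenomedullin and RAMP signalling, 1 rose (against 0.459% of all tested genes) and 0 fell. The growth factor midkine, Mdk, had 0.574, 0.679, 0.665 and 0.252 CPM against 1.63, 1.28, 1.18 and 1.86 (1.44 ± 0.29 SE, adjusted p = 0.0407), and 1 of 8 tested genes of midkine, pleiotrophin and their receptors rose (against 0.459% of all tested genes). Both genes were called in part of the fits that left out a library, Ramp1 in 7 of 12 and Mdk in 2 of 12, with adjusted p of up to 0.0798 and 0.105 without UNX/DOCA ITF2357 replicate 1.

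Hcn2, a subunit of the pacemaker channel that carries the hyperpolarisation-activated current, had 34.7, 28.4, 36.4 and 33.9 CPM with vehicle and 74.6, 59.4, 50.6 and 50.7 with the drug. It was the 1 gene that rose of 28 tested ion channel genes and of 19 tested neuronal genes that the repressor REST silences, against 0.459% of all tested genes (0.82 ± 0.16 SE, adjusted p = 0.0385). The drug libraries lay above the vehicle libraries, with replicate 1 highest. Kcnv2, a silent subunit that modifies voltage-gated potassium channels, also rose and is not in the ion channel list. It had 10.2, 11, 6.36 and 8.16 CPM against 23, 13.5, 18.7 and 33 (1.30 ± 0.24 SE, adjusted p = 0.0349). Its drug group was spread widely, and Sham vehicle was at 13.9 to 17.5 CPM. Of the 28 ion channel genes 22 had a fold change above 0 (median 0.17, against 49.8% of all tested genes), and 19 of 28 without vehicle replicates 3 and 4 (median 0.10). The calls of Hcn2 and Kcnv2 were each made in 3 of the 12 fits that left out a library, with adjusted p of up to 0.112 and 0.113 without UNX/DOCA vehicle replicate 4.

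Hopx, a homeodomain protein without DNA binding that recruits HDAC activity against serum response factor in the heart, was the 1 gene called of 20 tested HDAC complex partners (against 0.901% of all tested genes). It had 102, 135, 117 and 109.8 CPM with vehicle and 213, 171, 193 and 218 with ITF2357, against 111 to 145 in Sham vehicle. The drug libraries were the highest of all 12 (log2 fold change 0.78 ± 0.11 SE, adjusted p = 0.0110). It was called in 10 of 12 leave-one-out fits, with an adjusted p of 0.0560 without UNX/DOCA vehicle replicate 4. Gnai1, an inhibitory G protein subunit, rose from 8.64 ± 1.27 to 14.9 ± 1.35 CPM (SD, n = 4, adjusted p = 0.0160). Adcy1, a calcium-stimulated adenylyl cyclase, rose from 3.57 ± 1.37 to 7.46 ± 1.23 CPM (adjusted p = 0.0496). Syt7, a calcium sensor of exocytosis, rose from 29.4 ± 4.95 to 46.7 ± 4.30 CPM (adjusted p = 0.0204). These called genes differ in what they do and were in 1 (Adcy1) to 9 (Syt7) of the 12 leave-one-out fits.

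Of the genes that rose and have a high mean CPM, those other than Ndrg4 changed by less than 2-fold. Ptprb, the receptor phosphatase of endothelial cells, had 145 ± 18.7 CPM with vehicle and 204 ± 25.6 with ITF2357 (log2 fold change 0.49, adjusted p = 0.0496). Of 22 endothelial markers 0 passed, with a median of -0.02. Cpeb3, an RNA-binding regulator of translation, rose from 109 ± 21.5 to 179 ± 26.7 CPM (adjusted p = 0.0349), and Tesc, which encodes the calcineurin-homologous protein tescalcin, from 101 ± 5.81 to 141 ± 10.7 CPM (adjusted p = 0.0196). Tfpi, the inhibitor of tissue factor in coagulation, rose from 89.4 ± 10.2 to 122 ± 7.96 CPM (adjusted p = 0.0455). Cox17, a copper chaperone of cytochrome c oxidase, rose from 83.1 ± 4.27 to 107 ± 6.59 CPM (adjusted p = 0.0346), while of 37 nuclear genes of the respiratory chain 0 passed. Each of these calls was lost in at least 1 leave-one-out fit, with adjusted p of up to 0.0672 for Tesc and between 0.0999 and 0.123 for the other 4.

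Other genes that rose more than 2-fold, or close to it, were Acss3, a mitochondrial short-chain acyl-CoA synthetase (log2 fold change 1.97), Zfp286 (1.43), the tubulin carboxypeptidase Agbl2 (1.41), Fads6 (1.23), the transporter Abca6 (1.16), Morn4 (1.06) and Prrg1 (0.97). Their adjusted p lay between 0.0204 (Abca6) and 0.0496 (Agbl2). Abca6 had 6.17, 4.14, 2.66 and 3.67 CPM with vehicle and 9.10, 10.0, 9.34 and 8.87 with ITF2357, against 8.05 to 8.52 in Sham vehicle. Acss3 had 0.405, 0.388, 0.125 and 0.360 CPM with vehicle and 1.48, 1.12, 1.38 and 1.16 with ITF2357, against 0.760 to 1.94 in Sham vehicle. For these 2 genes the UNX/DOCA vehicle libraries were the low ones, and the drug libraries lay in or just above the Sham vehicle range. UNX/DOCA vehicle against Sham vehicle did not pass for either (adjusted p = 0.0899 for Abca6 and 0.0998 for Acss3). Pdp2, a phosphatase that activates pyruvate dehydrogenase, rose from 16.3 ± 3.36 to 26.9 ± 4.20 CPM (adjusted p = 0.0395), and the monocarboxylate transporter Slc16a7 from 5.86 ± 0.722 to 10.4 ± 2.77 (adjusted p = 0.0496). Each of these 9 genes lost its call in 4 or more of the 12 leave-one-out fits, with adjusted p of up to 0.0844 for Abca6 and 0.135 for Slc16a7.

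The genes of the drug's targets and of the responses known from cultured cells did not pass. Of the 11 zinc-dependent HDAC genes 0 were called, with log2 fold changes from -0.39 (Hdac7) to 0.27 (Hdac11). Hdac2 had 50.7, 47.1, 44.2 and 47.3 CPM with vehicle and 55, 45.6, 54.2 and 54.8 with ITF2357 (0.15 ± 0.07 SE, adjusted p = 0.303), and Hdac7 had 44.3, 45.5, 66.4 and 53.9 against 37.6, 56, 37.4 and 29.2 (-0.39 ± 0.19 SE, adjusted p = 0.306). The groups overlapped for both. Sirtuins (7 genes), lysine acetyltransferases (12), bromodomain readers (14) and polyadenylated histone genes (14) had 0 calls too, with medians between -0.11 and 0.10. Among 22 genes that HDAC inhibitors are known to change in cultured cells 0 passed and 10 were above 0 (median -0.04). In that group Cdkn1a, the cell cycle inhibitor p21, had 169, 49.8, 90.9 and 118 CPM with vehicle and 42.4, 64, 41.4 and 103 with ITF2357 (-0.77 ± 0.40 SE, adjusted p = 0.328). The linker histone gene H1f0 had 58.6 ± 6.57 against 60.4 ± 12.4 CPM (0.04 ± 0.14 SE, adjusted p = 0.894). Without vehicle replicates 3 and 4, 17 of the 22 were above 0, with a median of 0.26 and still 0 calls.

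**Figure D3:**
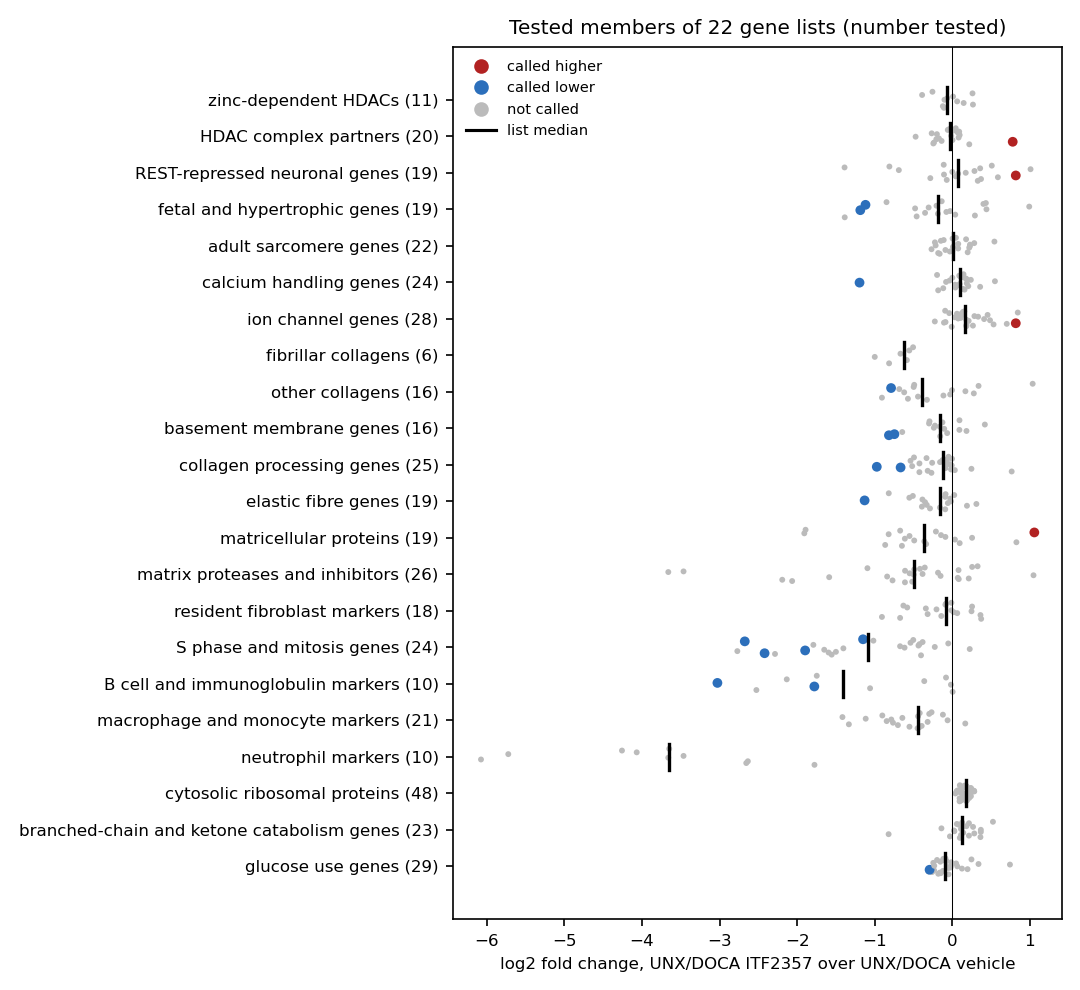
Each point is a tested gene of 1 of 22 gene lists, with its log2 fold change of UNX/DOCA ITF2357 over UNX/DOCA vehicle on the x axis, called genes in colour and the list's median as a black bar. The lowest member stands at -6.07 for neutrophil genes, -3.66 for matrix proteases and inhibitors, -3.03 for B cell genes and -2.77 for cell cycle genes. Neutrophil genes and matrix proteases hold 0 calls.

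In the cardiomyocyte, genes of the contractile and calcium apparatus of adult ventricle stayed close to 0, and 3 genes known from skeletal muscle, Casq1, Mybpc2 and Myl1, fell. Of 8 tested markers of skeletal muscle 0 passed (median -0.19). Of 22 adult sarcomere genes 0 passed (median 0.01), with Myh6, the main myosin heavy chain of mouse ventricle, at 20884 ± 3112 CPM with vehicle and 22022 ± 767 with ITF2357 (adjusted p = 0.754). Of 24 calcium handling genes 1 fell (against 0.442% of all tested genes) and 0 rose (median 0.10). That gene was Casq1, the calsequestrin of skeletal muscle, with 24.2, 22.6, 17.4 and 26.1 CPM with vehicle and 8.54, 10.3, 12.2 and 8.37 with the drug. The drug libraries lay below every vehicle and Sham vehicle library (16.4 to 27 CPM), with a log2 fold change of -1.20 ± 0.18 SE (adjusted p = 0.0196). The calcium pump Atp2a2 had 11125 to 11903 CPM with vehicle and 11925 to 13492 with ITF2357 (0.16 ± 0.06 SE, adjusted p = 0.196), separated but not called.

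Flnc, the muscle filamin that crosslinks actin at the Z disc and the membrane, had 556, 616, 747 and 681 CPM with vehicle and 247, 402, 323 and 315 with ITF2357. This was a 2.02-fold lower level, with the groups apart and Sham vehicle reaching into the range of the drug libraries (341 to 500.4 CPM, log2 fold change -1.01 ± 0.16 SE, adjusted p = 0.0204). Mybpc2, the fast skeletal form of myosin-binding protein C, had 42.9, 44.7, 56.9 and 59.2 CPM against 11.4, 27.8, 23.4 and 26.9 (-1.19 ± 0.23 SE, adjusted p = 0.0382). Myl1, a light chain of fast skeletal myosin, had 13.2, 12.4, 9.43 and 15.5 CPM against 6.25, 7.53, 6.30 and 4.56 (-1.03 ± 0.19 SE, adjusted p = 0.0315). In drug replicate 1 Mybpc2 was lowest, and for Myl1 replicate 4 was. Casq1 was called in 9, Flnc in 8, Myl1 in 6 and Mybpc2 in 4 of 12 leave-one-out fits, and without UNX/DOCA vehicle replicates 3 and 4 their log2 fold changes were -1.25, -0.87, -1.05 and -0.97 (adjusted p = 0.0564, 0.175, 0.0716 and 0.265).

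Of 19 fetal and hypertrophic genes 2 fell, Rcan1 and Mybpc2 (against 0.442% of all tested genes), and 0 rose (median -0.18, 13 of 19 below 0). Rcan1, which calcineurin induces and which inhibits it, had 255, 178, 168 and 334 CPM with vehicle and 101, 115, 118 and 97.1 with ITF2357. The vehicle libraries were scattered and the drug libraries narrow and lower (-1.12 ± 0.20 SE, adjusted p = 0.0324, up to 0.0984 without UNX/DOCA ITF2357 replicate 1). Skeletal actin, Acta1, had 2959.9, 1881, 2226 and 2774 CPM with vehicle and 369, 1333, 1403 and 660.0 with ITF2357, which did not overlap and did not pass (-1.39 ± 0.44 SE, adjusted p = 0.136). The stretch-responsive gene Xirp1 had 299, 439, 696 and 586 against 194, 382, 197 and 349 CPM (adjusted p = 0.153). The natriuretic peptide genes, classic markers of wall stress, did not pass. Nppa had 309.8, 222, 276 and 325 CPM with vehicle and 213, 820.0, 829 and 392 with the drug (0.99 ± 0.38 SE, adjusted p = 0.201), where drug replicates 2 and 3 were high and replicate 1 was not. Nppb had 457, 168, 387 and 393 against 251, 217, 437 and 317 (-0.20 ± 0.34 SE, adjusted p = 0.796). Myh7, the slow myosin heavy chain that rises in stressed mouse hearts, had 363 ± 55.4 against 492 ± 156 CPM (adjusted p = 0.302), and the stretch-responsive Ankrd1 1326 ± 163 against 1624 ± 312 (adjusted p = 0.385). Sham vehicle averaged 140 ± 25.3 CPM for Rcan1, 1192 ± 527 for Acta1, 114 ± 36.9 for Nppa and 395 ± 163 for Nppb. It averaged 272 ± 57.4 CPM for Myh7 and 809 ± 206 for Ankrd1. UNX/DOCA ITF2357 against Sham vehicle passed for Nppa and Ankrd1 (adjusted p = 0.0269 and 0.0229), and not for Rcan1, Acta1, Nppb or Myh7. UNX/DOCA vehicle against Sham vehicle passed for none of these genes (adjusted p from 0.117 for Ankrd1 to 0.844 for Nppb).

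Single genes of actin and adhesion also fell, while the lists of intercalated disc and costamere genes (19 tested) and of tubulins and their modifiers (19) held 0 calls. Agbl2, which rose, is not in the tubulin list. Tpm4, Capg, Fhl3 and Itga5 were chosen after their values were seen, as were Gnai1, Syt7, Tfpi, Cox17, Pdp2, Slc16a7, Uck2 and Emp1. Dbn1, the actin-binding protein drebrin, fell from 25.1 ± 9.68 to 10.6 ± 2.48 CPM (-1.25 ± 0.26 SE, adjusted p = 0.0496), Tpm4, a tropomyosin of stress fibres, from 153 ± 24.9 to 91.5 ± 21.5 (adjusted p = 0.0418), and Capg, which caps actin filaments, from 21.5 ± 5.48 to 10.7 ± 2.04 (adjusted p = 0.0300). The LIM protein gene Fhl3 fell from 8.86 ± 1.34 to 4.33 ± 1.15 CPM (adjusted p = 0.0300). Itga5, the alpha subunit of the fibronectin receptor, had 95.7, 72, 137 and 93 CPM with vehicle and 49.3, 59.2, 46.5 and 59.7 with ITF2357 (-0.89 ± 0.16 SE, adjusted p = 0.0300). Vehicle replicate 3 was the highest for Itga5 and for Capg. Sham vehicle averaged 9.37 ± 1.84 CPM for Dbn1, 92.6 ± 6.05 for Tpm4, 9.77 ± 0.548 for Capg and 77.9 ± 4.36 for Itga5. UNX/DOCA vehicle against Sham vehicle did not pass for these genes (adjusted p from 0.0649 for Capg to 0.303 for Itga5). Trim55, a ubiquitin ligase of the sarcomere, fell by a small and narrow margin from 148 ± 6.65 to 118 ± 7.98 CPM (adjusted p = 0.0388), the 1 call among 13 genes of titin splicing and stiffness (against 0.901% of all tested genes). Without vehicle replicates 3 and 4 the log2 fold changes were -0.69 for Dbn1, -0.55 for Tpm4, -0.67 for Capg, -1.07 for Fhl3, -0.65 for Itga5 and -0.34 for Trim55. None of the 6 was called in more than 7 of the 12 leave-one-out fits, where their adjusted p reached 0.0785 (Fhl3) to 0.129 (Dbn1).

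Extracellular matrix genes were lower with the drug in most lists, and few members passed. All 6 tested fibrillar collagen genes had a log2 fold change below 0 (median -0.63) and 0 passed. Col3a1 had 263, 151, 315 and 207 CPM with vehicle and 84.8, 144, 121 and 119 with ITF2357, the closest to the threshold (-0.999 ± 0.22 SE, adjusted p = 0.0584). Its groups did not overlap, vehicle replicate 2 being near the highest drug library. Col1a1 had 80.3, 51.8, 121 and 57.7 against 32.1, 64.3, 38.4 and 41.8 CPM (-0.81 ± 0.26 SE, adjusted p = 0.138) and Col1a2 106, 85.8, 163 and 97.1 against 57.4, 95.4, 71.1 and 76.7 (-0.58 ± 0.20 SE, adjusted p = 0.149), and the groups overlapped for both. Summed over the list, the vehicle libraries had 366 to 721 CPM, the drug libraries 238 to 384 and the Sham vehicle libraries 340.0 to 450.4. The median of the list was between -0.74 and -0.48 in all 26 alternatives, and 6 of 6 genes were below 0 in each.

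Basement membrane collagen fell. Col4a1, which with Col4a2 forms the collagen IV network under endothelium and around myocytes, had 571, 429, 557 and 554 CPM with vehicle and 246, 403, 244 and 306 with ITF2357 (-0.82 ± 0.16 SE, adjusted p = 0.0395). Col4a2 had 388, 309, 499 and 386 against 214, 307, 200.5 and 222 (-0.75 ± 0.16 SE, adjusted p = 0.0496). Vehicle replicate 2 and drug replicate 2 came closest for both, and Sham vehicle (298 to 399 and 226 to 289.7 CPM) lay in the range of the drug libraries. These 2 genes share a promoter region and were the calls among 16 basement membrane genes (median -0.16, 12 below 0), against 0.442% of all tested genes. Col6a2, a subunit of the microfibril collagen VI, had 86.8, 66, 109.8 and 66.4 CPM against 46.3, 51.3, 51.7 and 41.1 (-0.79 ± 0.15 SE, adjusted p = 0.0349) and was the 1 call of 16 other collagens (median -0.38, 12 below 0), against 0.901% of all tested genes.

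The enzymes that crosslink collagen and the fibres of elastic tissue showed 3 calls. Loxl2, a lysyl oxidase, had 28.8, 19.9, 31.7 and 26 CPM with vehicle and 11.6, 16.9, 11.2 and 14.4 with ITF2357 (-0.97 ± 0.18 SE, adjusted p = 0.0349). Loxl1, which acts on elastin, had 28.7, 19.8, 32 and 25.2 against 17.4, 17.6, 15.8 and 15.8 (-0.67 ± 0.14 SE, adjusted p = 0.0496). Loxl2 and Loxl1 were the 2 calls of 25 collagen processing genes (against 0.442% of all tested genes), of which 22 were below 0 (median -0.13). In both, the 4 drug libraries were lower than all UNX/DOCA vehicle libraries. Fbn1, the fibrillin of microfibrils that store TGF-beta, had 139, 69.7, 113 and 138 CPM against 53.3, 66.2, 45.7 and 44.9 (-1.13 ± 0.22 SE, adjusted p = 0.0395), the 1 call of 19 elastic fibre genes (median -0.16, 16 below 0), against 0.901% of all tested genes. Fstl1, a secreted follistatin-like protein, had 139, 100.2, 176 and 163 CPM against 66.7, 96.8, 85.8 and 74.8 (-0.83 ± 0.17 SE, adjusted p = 0.0426), the 1 call of 27 TGF-beta signalling genes (median -0.21, 19 below 0), against 0.901% of all tested genes. Sham vehicle averaged 15.7 ± 3.08 CPM for Loxl2, 73.3 ± 16.2 for Fbn1 and 77.3 ± 10.6 for Fstl1. UNX/DOCA vehicle against Sham vehicle did not pass for these genes (adjusted p from 0.0841 for Fstl1 to 0.197 for Fbn1).

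Thrombospondin 2, Thbs2, a secreted regulator of collagen fibril assembly, rose. It had 13, 17.5, 15 and 13.8 CPM with vehicle and 27.8, 25, 30.0 and 40.7 with ITF2357, where drug replicate 4 was highest (1.06 ± 0.19 SE, adjusted p = 0.0349). This was the 1 gene that rose of 19 matricellular genes (against 0.459% of all tested genes), of which 14 were below 0 (median -0.36) and 0 fell. The usual markers of activated fibroblasts did not pass. Postn, the matricellular protein periostin, had 69.8, 53.1, 94.8 and 88.1 CPM with vehicle and 33.9, 70.0, 59 and 37 with ITF2357 (-0.61 ± 0.31 SE, adjusted p = 0.316), and fibronectin, Fn1, had 41.7, 43.5, 103 and 61.4 against 39.6, 58.4, 40.7 and 38.9 (-0.49 ± 0.25 SE, adjusted p = 0.322). For Fn1 the vehicle mean rested on replicate 3, and the value was 0.053 without replicates 3 and 4.

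Most matrix lists lay nearer to 0 without the libraries that were high in immune genes. Without UNX/DOCA vehicle replicates 3 and 4, log2 fold changes were -0.75 for Col4a1, -0.57 for Col4a2, -0.69 for Col6a2, -0.85 for Loxl2, -0.55 for Loxl1, -0.998 for Fbn1, -0.57 for Fstl1 and 1.01 for Thbs2. Their adjusted p were then 0.0707 (Col6a2) to 0.274 (Fstl1). The median of fibrillar collagens in that setting was -0.56, whereas medians went to -0.08 for other collagens, -0.03 for collagen processing, -0.00 for elastic fibres and -0.04 for TGF-beta signalling, with 0 calls in these lists. Resident fibroblast markers summed to 1935 to 2736 CPM in UNX/DOCA vehicle libraries and 1897 to 2274 in drug libraries, with 0 of 18 called (median -0.08, and 0.12 without vehicle replicates 3 and 4). Activated fibroblast genes had 0 of 15 called (median -0.49). The part of fibroblast number in the matrix values was not tested.

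**Figure D4:**
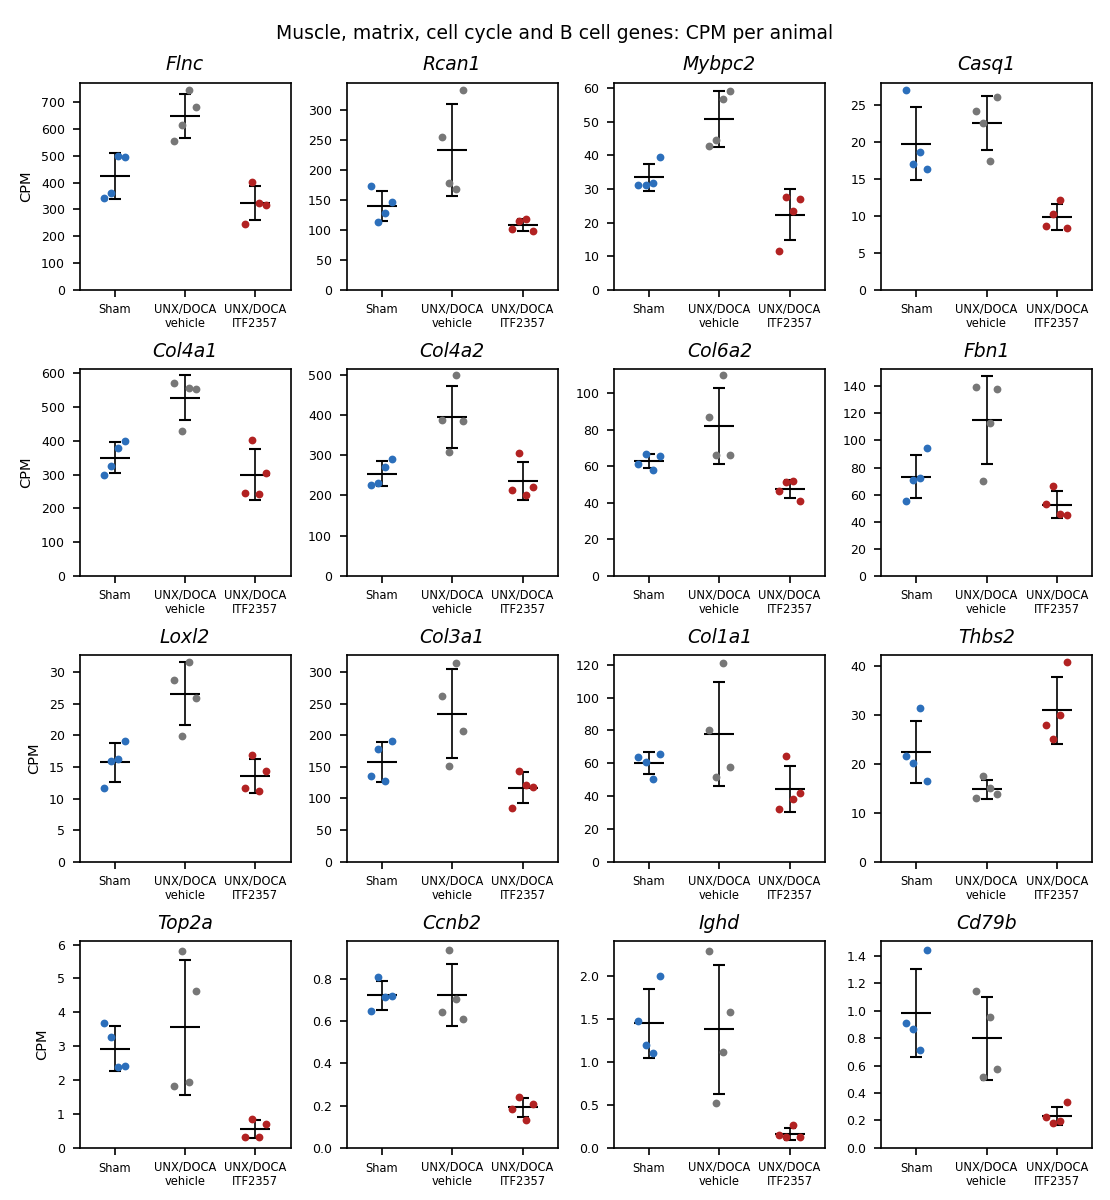
CPM per animal of 16 genes of muscle, matrix, cell cycle and B cells, with Sham in blue, UNX/DOCA vehicle in grey and UNX/DOCA ITF2357 in red, 4 libraries each (bars: mean ± SD). Col3a1 and Col1a1 are shown though not called, and Thbs2 is the 1 gene of the 16 that is higher with the drug.

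Genes of DNA replication and mitosis formed, among the 70 lists, the one with the most calls by number, though not by share. Of 24 tested S phase and mitosis genes 4 fell (against 0.442% of all tested genes), 23 had a fold change below 0 and the groups did not overlap for 10, all lower with the drug (against 4.36% of all tested genes). The list's median log2 fold change was -1.08. Top2a, the topoisomerase that untangles replicated DNA, had 1.82, 5.82, 1.95 and 4.64 CPM with vehicle and 0.333, 0.850, 0.328 and 0.704 with ITF2357. The vehicle libraries fell into a low pair (1 and 3) and a high pair (2 and 4), all above the drug libraries (-2.67 ± 0.44 SE, adjusted p = 0.0204). Ccnb2, a cyclin that drives entry into mitosis, had 0.641, 0.937, 0.706 and 0.611 CPM against 0.185, 0.243, 0.131 and 0.207, with Sham vehicle at 0.646 to 0.810 (-1.90 ± 0.27 SE, adjusted p = 0.0110). Here the drug libraries stood below an even level of all 8 others. The mitotic checkpoint kinase Bub1 had 0.169, 0.776, 0.457 and 0.719 CPM against 0.111, 0.121, 0.0656 and 0.0829 (-2.42 ± 0.49 SE, adjusted p = 0.0434), and Ube2c, the ubiquitin-conjugating enzyme of the anaphase-promoting complex, 1.59, 2.29, 1.21 and 1.80 against 0.555, 0.820, 0.820 and 0.911 (-1.15 ± 0.24 SE, adjusted p = 0.0478).

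Counts of these genes were low. Ccnb2 had 19, 29, 17 and 17 counts in the vehicle libraries and 5, 8, 4 and 5 in the drug libraries, and Bub1 5, 24, 11 and 20 against 3, 4, 2 and 2. Ccnb1, the other mitotic B-type cyclin, had 0 counts in 2 drug libraries (-2.77 ± 0.68 SE, adjusted p = 0.0730). Mki67, the proliferation marker, had 3.14, 10.6, 3.12 and 7.73 CPM with vehicle and 0.629, 1.82, 1.21 and 3.52 with ITF2357 (-1.79 ± 0.49 SE, adjusted p = 0.0977), overlapping in 1 library of the drug group. The helicase genes of replication, Mcm2, Mcm3, Mcm5 and Mcm6, had values between -0.67 (Mcm5) and -0.23 (Mcm3), and Cenpf was the 1 gene above 0 (0.23). Outside the list, the spindle protein Spag5 fell from 1.00 ± 0.378 to 0.286 ± 0.0796 CPM (adjusted p = 0.0349) and Iqgap3 from 1.12 ± 0.380 to 0.269 ± 0.142 (adjusted p = 0.0364), called in 4 and 3 of 12 leave-one-out fits. Without vehicle replicates 3 and 4 the list's median was -1.22 with 22 of 24 below 0, and Top2a stood at -2.78 (adjusted p = 0.0707) and Ccnb2 at -2.02 (adjusted p = 0.0564). Over the 26 alternatives the list's median ran from -1.24 to -0.61, with 16 to 23 genes below 0 and 0 to 11 called lower. As a mean log2 deviation, the list stood at -0.01, 0.83, 0.06 and 0.54 in vehicle replicates 1 to 4. With ITF2357 it stood at -1.18, -0.39, -0.76 and -0.38. The calls were made in 11 (Ccnb2), 8 (Top2a), 2 (Ube2c) and 1 (Bub1) of 12 leave-one-out fits, with adjusted p of up to 0.0519, 0.0768, 0.123 and 0.123. Among 18 cell cycle inhibitors and G1 cyclins 0 passed (median -0.19).

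The promoters of the 4 called genes are shown because these genes fell and cell cycle promoters are known for a pair of elements, the CCAAT box (CCAAT, or ATTGG on the other strand) and the cell cycle genes homology region, CHR (TTTGAA, or TTCAAA on the other strand). Each runs 5′ to 3′ on the gene's strand from 250 bases before to 50 after the start in RefSeq (GRCm38.p6), with matches to either element in capitals. Top2a lies at chr11:99024140-99024439 (minus strand), Ccnb2 at chr9:70421505-70421804 (minus), Bub1 at chr2:127831810-127832109 (minus) and Ube2c at chr2:164769679-164769978 (plus).
Top2a: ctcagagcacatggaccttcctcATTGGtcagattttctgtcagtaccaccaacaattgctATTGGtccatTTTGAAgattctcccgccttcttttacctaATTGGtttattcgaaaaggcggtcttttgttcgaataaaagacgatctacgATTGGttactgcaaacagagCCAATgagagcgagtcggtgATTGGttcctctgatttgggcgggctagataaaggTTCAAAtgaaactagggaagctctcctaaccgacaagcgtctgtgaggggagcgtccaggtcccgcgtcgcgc
Ccnb2: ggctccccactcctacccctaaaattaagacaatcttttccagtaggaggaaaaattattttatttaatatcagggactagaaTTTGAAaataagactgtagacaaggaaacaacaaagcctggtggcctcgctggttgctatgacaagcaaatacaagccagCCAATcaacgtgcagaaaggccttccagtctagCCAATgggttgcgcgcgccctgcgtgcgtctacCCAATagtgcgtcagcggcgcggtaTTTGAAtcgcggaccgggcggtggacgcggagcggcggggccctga
Bub1: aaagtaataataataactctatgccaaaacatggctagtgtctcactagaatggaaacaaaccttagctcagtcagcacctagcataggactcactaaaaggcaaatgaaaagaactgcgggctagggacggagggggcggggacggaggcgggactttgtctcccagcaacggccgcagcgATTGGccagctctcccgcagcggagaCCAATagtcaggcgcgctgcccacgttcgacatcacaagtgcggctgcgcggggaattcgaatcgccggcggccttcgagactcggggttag
Ube2c: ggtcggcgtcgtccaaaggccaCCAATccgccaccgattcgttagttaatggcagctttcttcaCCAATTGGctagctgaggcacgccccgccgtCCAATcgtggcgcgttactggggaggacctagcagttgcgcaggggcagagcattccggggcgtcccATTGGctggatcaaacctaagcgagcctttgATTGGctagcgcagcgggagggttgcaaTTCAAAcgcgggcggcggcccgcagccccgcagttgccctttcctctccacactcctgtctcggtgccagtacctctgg
The CCAAT box occurs 6, 3, 2 and 6 times in these promoters in the order shown, and the CHR 2, 2, 0 and 1 times. A promoter was found for 21 of the 24 list genes, of which 18 (85.7%) hold a CCAAT box and 11 (52.4%) a CHR. The shares were 38.1% and 11.9% over the 11150 tested genes with a promoter, and 37.4% and 17.9% over all 32851 promoters of the same length. Of the 55 genes called lower with a promoter, 40% hold a CCAAT box and 14.5% a CHR. A match of letters is a description of the sequence and not evidence that a factor is bound there.

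Of 10 tested B cell and immunoglobulin markers 2 fell with the drug, Ighd and Cd79b (against 0.442% of all tested genes). Of the 10, 9 were below 0 (median -1.40). The summed level of the list overlapped between the groups, with 38.8, 20.8, 49.8 and 25.9 CPM with vehicle and 27.2, 33.0, 24.3 and 22.95 with ITF2357. Ighd, the heavy chain of IgD on naive B cells, had 2.29, 0.517, 1.12 and 1.58 CPM with vehicle, 0.148, 0.121, 0.262 and 0.124 with ITF2357 and 1.11 to 2.00 in Sham vehicle (-3.03 ± 0.47 SE, adjusted p = 0.0196). Every drug library lay below every other library, and in counts they were 4, 4, 8 and 3. The B cell receptor component Cd79b had 1.15, 0.517, 0.956 and 0.575 CPM against 0.222, 0.182, 0.197 and 0.331 (-1.78 ± 0.36 SE, adjusted p = 0.0432). The drug libraries again lay below the vehicle libraries. Ms4a1, which encodes CD20, had 0.506, 0.162, 0.416 and 0.503 against 0.148, 0.152, 0.0328 and 0 and did not pass (adjusted p = 0.0894). Ighm, the heavy chain of IgM, Ebf1 and Blk were closer to 0 (-0.36, -0.02 and 0.01). Without vehicle replicates 3 and 4 neither was called, and Ighd stood at -3.06 (adjusted p = 0.0707) and Cd79b at -1.84 (0.156). Ighd was called in 9 and Cd79b in 1 of 12 leave-one-out fits.

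The other immune lists had medians below 0 and 0 calls, and neutrophil, macrophage, class II and complement genes had their highest summed levels in UNX/DOCA vehicle replicates 3 and 4. All 10 tested neutrophil genes were below 0 (median -3.65). S100a8, a calcium-binding alarmin of granulocytes, had 4.45, 0.356, 157 and 35.9 CPM with vehicle and 0.850, 2.40, 2.36 and 4.81 with ITF2357 (-4.26 ± 1.35 SE, adjusted p = 0.141), and its partner S100a9 had 9.31, 0.776, 217 and 60.6 against 1.52, 5.28, 4.89 and 11.4 (adjusted p = 0.168). Vehicle replicate 3 was the highest and replicate 4 the next, while vehicle replicate 2 was below all drug libraries. Without replicates 3 and 4 the list's median was 0.40, with 9 of 10 above 0. Macrophage and monocyte genes had a median of -0.45 with 20 of 21 below 0, and 0.13 with 13 of 21 above 0 without the 2 libraries. The alarmin Il33 had 2.94, 9.15, 27.4 and 20.9 CPM with vehicle and 4.25, 11.7, 7.77 and 10.0 with ITF2357 (-0.83 ± 0.52 SE, adjusted p = 0.418), and 0.47 without them. Chemokines and cytokines (22 genes, median -0.84), class II antigen presentation (9, -0.69), complement and acute phase genes (16, -0.49), and T and NK cell markers (7, -0.46) had 0 calls as well. Without the 2 libraries the direction turned for class II (median 0.08, 7 of 9 above 0) and complement and acute phase genes (0.45, 13 of 16 above 0), and the median was -0.14 for chemokines and cytokines and -0.22 for T and NK cell markers. The 2 libraries had the highest summed levels of these lists in the vehicle group. Leaving them out therefore had to raise the values, and the turn is not separate evidence.

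**Figure D5:**
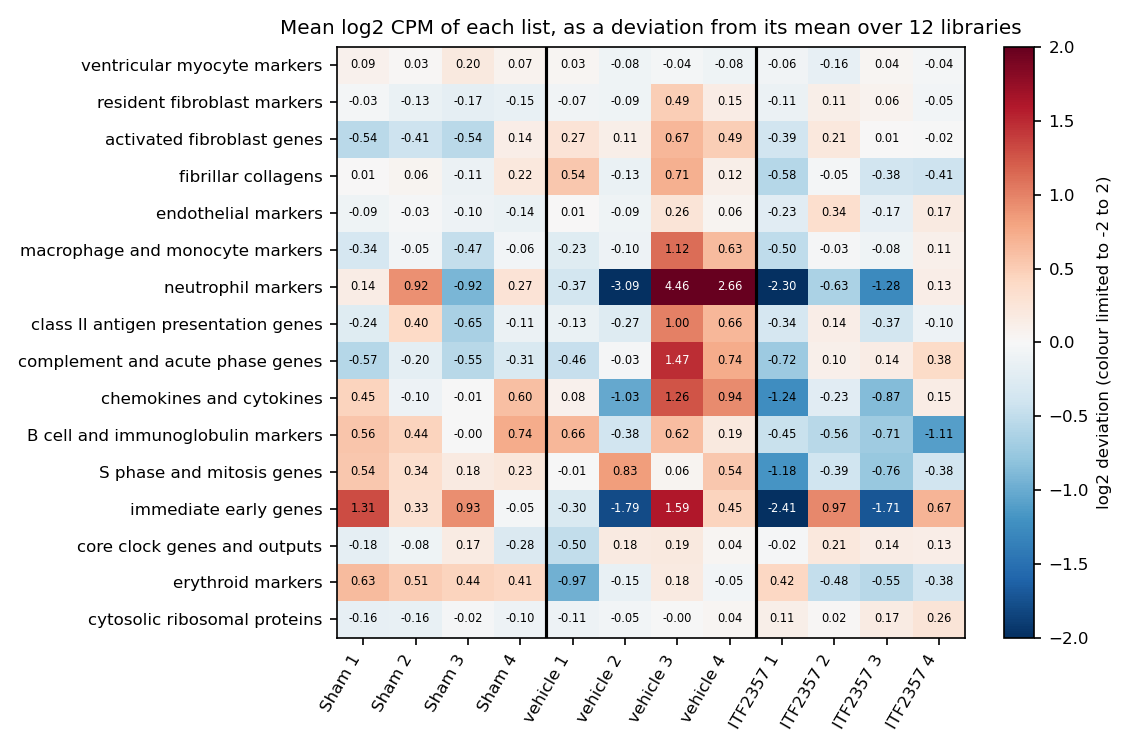
Mean log2 CPM of 16 gene lists in each of the 12 libraries, as the deviation from the list's mean over all libraries (rows: lists, columns: libraries, colour limited to -2 to 2). Neutrophil genes stand at 4.46 and 2.66 in UNX/DOCA vehicle replicates 3 and 4, S phase and mitosis genes are below 0 in all 4 ITF2357 libraries, and ribosomal protein genes are above 0 in all 4.

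Metabolic and housekeeping lists moved little. All 48 tested cytosolic ribosomal protein genes were above 0 with the drug (median 0.17), and this held under each scaling, where the median was 0.16 to 0.21. The groups did not overlap for 17 of them (4.95% of all tested genes did so in this direction) and 0 passed, the smallest adjusted p being 0.0769. Reads of these genes can be shared with their pseudogenes. Of 23 genes of branched-chain amino acid and ketone catabolism 20 were above 0 (median 0.13) and 0 passed, the smallest adjusted p being 0.0633. The groups did not overlap for 8 of them that were higher and 1 that was lower (against 4.95% and 4.36% of all tested genes). In glucose use 1 of 29 genes fell (against 0.442% of all tested genes), Ldha, the lactate dehydrogenase subunit of glycolytic tissue, with 486, 503, 501 and 502 CPM with vehicle and 369.9, 405, 428 and 424 with ITF2357. This was a 1.22-fold lower level in a gene with little spread (-0.29 ± 0.06 SE, adjusted p = 0.0422, up to 0.123 without UNX/DOCA vehicle replicate 4). Uck2, a kinase of pyrimidine salvage, fell from 90.3 ± 19.4 to 45.8 ± 11.3 CPM (-0.98 ± 0.18 SE, adjusted p = 0.0346), and Emp1, a membrane protein, from 132 ± 25.6 to 76.7 ± 16.7 (adjusted p = 0.0496). Sham vehicle was at 41.5 ± 4.99 CPM for Uck2 and 69.3 ± 8.09 for Emp1. UNX/DOCA vehicle against Sham vehicle did not pass for either (adjusted p = 0.0649 and 0.0813). Zp2, known as a protein of the egg coat, fell from 1.16 ± 0.332 to 0.335 ± 0.127 CPM (adjusted p = 0.0378) and Glipr2 from 7.55 ± 2.47 to 3.04 ± 0.185 (adjusted p = 0.0364). These 5 genes were called in 1 to 6 of the 12 leave-one-out fits.

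Clock genes and immediate early genes, which follow the time of day and the handling of tissue, held 0 calls. Of 19 core clock genes and outputs 0 passed (median 0.20), and of 20 immediate early genes 0 passed (median -0.34). Without vehicle replicates 3 and 4, the highest of the vehicle group for immediate early genes, the direction of these genes turned, with a median of 0.72 and 16 of 20 above 0. The summed immediate early genes ran from 595 to 3547 CPM in vehicle libraries and from 276 to 2717 in drug libraries. With the clock component as a covariate 62 genes were called, and with the immediate early mean 94. Of the 20 heat shock chaperones 0 passed and 17 were below 0 (median -0.20). Smooth muscle and pericyte markers (19 tested), lymphatic (7) and erythroid (8) markers, Schwann cell and neuron markers (9) and mast cell markers (5) had 0 calls.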

How the data were processed

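The authors deposited raw counts for 12 libraries by Ensembl gene, not normalized. They proved to be whole numbers whose totals differ between libraries. Per the labels' protocols, poly(A) RNA from about 10 mg of left ventricle was made into directional libraries and read as pairs of 150 bp. Per the submitters' processing notes, FastQC 0.11.9 and STAR 2.7.10b were used with the mm39 build. How reads were counted, with which strand setting and annotation release, is not given in the sources used here. Reads of overlapping and antisense genes can therefore be mixed. Some genes of the heart had almost no counts in any library (Tagln 2 to 10, Ilk 1 to 9, Rpl24 2 to 10), so a gene missing from the tested set is not shown to be silent. Symbols were taken by Ensembl identifier from GENCODE M21 (93.97% of tested genes), and promoters from RefSeq.

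The test was edgeR 4.0.16 under R 4.3.3 (filterByExpr with a minimum count of 10, TMM scaling, robust quasi-likelihood fit of all 12 libraries with a term per group, 9 residual degrees of freedom, common biological coefficient of variation 0.187). The contrast was UNX/DOCA ITF2357 minus UNX/DOCA vehicle, with Benjamini-Hochberg adjustment over 16981 genes and a threshold of 0.05. Every adjusted p is from this test or, where a library or setting is named, from the same test refitted in that setting and adjusted over the genes tested there. Those of a UNX/DOCA group against Sham vehicle are from that contrast in the fit of all 12 libraries. The SE of a log2 fold change is its size over the root of the F statistic, CPM are TMM-scaled, errors of CPM are SD over 4 libraries, and list scores use log2 CPM with a prior count of 2. The counts are of mm39, whereas symbols, promoters and gene lengths are of GRCm38. They were joined by identifier or symbol and not by position, so the printed positions are not those of mm39. The labels give no batch.

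The comparison, the 70 gene lists and the rule for named genes were chosen with earlier results of these data known. A gene that is not reported here was taken out of its list. The rule named the 15 called genes of each direction with the largest change (having a symbol, no overlap, and 1 CPM or more in the group with the higher mean), the 5 of each direction with the smallest p and the 5 with the highest CPM, a set of cardiac genes, and up to 4 genes per list, of which the text uses fewer. Other genes are named as chosen after their values were seen, or are members given to complete a list. Alternatives were RLE, upper-quartile and total-count scaling, DESeq2 1.42.0, no filter or a minimum of 1 CPM in 4 libraries, limma-voom (limma 3.58.1) with sample weights, the 8 libraries alone, a replicate block, glmTreat at 1.2-fold, clock or immediate early covariates, each library left out, and a fit without both UNX/DOCA vehicle replicates 3 and 4. In 1 set of simulated counts for this comparison (16980 genes, 200 of them changed), edgeR called 102 genes, 8 of them unchanged, and recovered 64% of 2-fold and 30% of 1.5-fold changes.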

Additional observations from a re-analysis of the deposited data

Results flagged for a closer look

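In 10 of 180 sets of 4 libraries (90 genes, both UNX/DOCA groups), 1 library stood apart from the other 3 by a gap that Dixon's 95% critical value marks as wide, which chance alone gives in about 1 of 20 sets. With ITF2357, replicate 1 was high for Tmem35a (9.61 CPM, others 6.69 to 6.96), replicate 2 was high for Fn1 (58.4 CPM, others 38.9 to 40.7) and low for Hdac2 (45.6, others 54.2 to 55.0) and Morn4 (1.94, others 2.11 to 2.13), and replicate 4 was low for Dcakd (19.4, others 21.5 to 21.9). With UNX/DOCA vehicle, replicate 1 was low for Ldha (486 CPM, others 501 to 503), replicate 2 was low for Col4a1 (429, others 554 to 571), replicate 3 was low for Acss3 (0.125, others 0.360 to 0.405) and Tfpi (74.2, others 92.5 to 95.7), and replicate 4 was high for Ramp1 (1.87, others 1.38 to 1.45). For the called genes among these the library that stood apart still lay outside the range of the other group.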

How the results depend on the processing

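The 153 genes kept their direction in each of the 26 alternatives that tested them (141 of them with the filter of 1 CPM, 149 in the 8 libraries alone, with or without the block, and all in the others), and 0 were called in every one of them. Each alternative reuses the libraries that chose these genes. The count of 153 (78 higher, 75 lower) was 125, 173 and 119 with RLE, upper-quartile and total-count scaling and 161 with the filter of 1 CPM. The share of higher calls was 51.0%, and 62.4% with upper-quartile scaling (108 higher, 65 lower). It was 928 with DESeq2 (400 higher, 528 lower), 251 with limma-voom (133 and 118) and 352 with no filter (155 and 197). It fell to 94 (41 and 53) with the immediate early covariate, 62 (30 and 32) with the clock covariate, 10 (6 and 4) against a 1.2-fold change, 5 (5 and 0) in the 8 libraries alone, and 12 (9 and 3) without UNX/DOCA vehicle replicates 3 and 4. Leaving out 1 library gave 14 to 243 calls, 7 to 105 higher and 7 to 138 lower. Why these counts differ was not tested.

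The main test did not pair animals by replicate number. The correlation of deviations between vehicle and drug libraries of the same number was 0.15, -0.01, -0.03 and 0.21. For unlike numbers it ran from -0.27 to 0.25. So few values cannot decide whether libraries of the same number belong together. With the replicate number as a block 68 genes were called (28 and 40) in the 12 libraries, and 0 (0 and 0) in the 8 alone by edgeR, where 2425 genes had an unadjusted p under 0.05. The cause was not tested.

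Of the values of the 90 genes named, 6 reversed, each of a gene that was not called: without UNX/DOCA vehicle replicates 3 and 4 log2 fold changes of 0.053 for Fn1, 0.47 for Il33, 0.10 for S100a8 and 0.18 for S100a9, and for H1f0 -0.03 with vehicle replicate 2 left out and -0.10 with drug replicate 1 left out (0.14 at most, with drug replicate 2 left out). With 4 animals a group, changes under 1.5-fold were mostly below what the test can call, and genes under 1 CPM rest on few counts.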

Other observations

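Genes with a zinc finger symbol (Zfp with a number, Zkscan, Zscan, Zik1 or Zim1) were above 0 with ITF2357 more often than below. The set was taken by symbol and not by protein domain, and many of its members encode DNA-binding repressors. These genes were looked at after their values were seen, and no test was made of the group. Of 339 tested, 256 (75.5%) had a log2 fold change above 0, against 49.8% of all tested genes, with a median of 0.23. The share depended on the level: it was 87.5% under 1 CPM and 87.0% at 1 to 5 CPM (52.8% and 54.5% of all tested genes), 71.8% at 5 to 20 CPM (46.7%), and 54% at 20 CPM and above (47.4%). The groups did not overlap for 46 that were higher (13.6%, against 4.95% of all tested genes) and 4 that were lower (1.18%, against 4.36%). Of the 339, 4 were called higher (Zfp763, Zfp286, Zfp160, Zfp940) and 1 lower (Zfp469), where 0.459% and 0.442% of all tested genes were called. The share above 0 ran from 65.8%, with a median of 0.11, without UNX/DOCA vehicle replicates 3 and 4 to 80.5% with upper-quartile scaling. As a median deviation from the mean of all 12 libraries (log2 of CPM plus 0.5), these genes stood at -0.05, 0.02, -0.26 and -0.11 in UNX/DOCA vehicle replicates 1 to 4, at 0.18, 0.13, 0.09 and -0.03 in the ITF2357 replicates, and at 0.02, 0.01, -0.09 and -0.09 in Sham vehicle. UNX/DOCA vehicle replicate 3 was the lowest and ITF2357 replicate 4 overlapped the vehicle libraries. Reads of zinc finger genes can be shared with close paralogs.

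The genes called higher spanned more genome than the others: the median gene length in GRCm38 was 45.4 kb for the 75 of 78 called higher with a length, 21.5 kb for those called lower and 21.2 kb for all tested genes (87.9% with a length). This is a description without a test.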
